A study of Mus musculus with 2 samples.

Results

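The genes described here encode the aminoacyl-tRNA synthetases, the enzymes that load each tRNA with its amino acid. They were taken by symbol from a table of counts per gene, and all 38 listed symbols were found among its 21983 entries. The set held 20 genes for cytosolic enzymes, 16 genes for mitochondrial enzymes, whose symbols end in 2, and the scaffold genes Aimp1 and Aimp2. The RNA came from 14837 cells, a pancreatic ductal adenocarcinoma (PDAC) line from C57BL/6 mice, grown in DMEM with 10% FBS and penicillin at 100 U/ml. For 48 h they were given medium in which either cancer-associated fibroblasts (CAFs), which are stromal cells of such tumours, or 14837 cells had grown before. The labels give no other genotype or treatment, and each of the 2 media had 1 library from a single line. A column of the table could be tied by name to the CAF-medium library alone, so the media were not compared and every value below is a level in that library.

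Each synthetase recognises a single amino acid and the tRNAs that carry it, and so supplies the ribosome with charged tRNA. Mitochondria translate their own few messages and use a separate set of nuclear-encoded synthetases that are imported. Gars and Kars are exceptions, since each gene yields both the cytosolic and the mitochondrial enzyme, and counts per gene do not separate these forms. Qars encodes the glutaminyl enzyme of the cytosol, while mitochondria make glutaminyl-tRNA by loading glutamate and then amidating it. Many cytosolic synthetase genes are known targets of ATF4, the transcription factor that responds to amino acid shortage.

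The library held 21269197 counts, and 11569 entries had at least 10 counts. The median of these entries, called the median gene here, lay at 37.9 counts per 1000000 counts (CPM). A single library gives no replicate spread and allows no test, and the intervals given are exact Poisson or binomial 95% intervals that cover counting error only. Of 6 markers of ductal epithelium, 5 exceeded 100 CPM, while Epcam had 2 counts. Of 7 fibroblast markers, none exceeded the median gene, and Col1a2, Col3a1, Dcn and Lum were listed at 0. Pdgfra was the highest of them at 34.2 CPM, and the 7 summed to 35.6 CPM against 3955 CPM for the 6 epithelial markers. Leukocyte, endothelial and acinar markers summed to 5.74, 0.235 and 0.752 CPM, and their part in the levels below was not tested. In RNA from bulk cells, more cells with a message and more message per cell cannot be told apart.

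All 38 genes had at least 10 counts, as did 52.6% of all entries, and their counts ran from 111 for Sars2 to 24752 for Nars, and together they held 1.02% of all counts. The cytosolic genes were high as a class, and the mitochondrial genes were mostly below the middle of the library. The 20 cytosolic genes had a median of 390 CPM, the 16 mitochondrial genes 26.1 CPM. All 20 cytosolic genes exceeded 100 CPM, as did 23.7% of the genes with at least 10 counts, and 1 of the 16 mitochondrial genes did. Above the median gene, which by its definition 50% of those genes exceed, lay all 20 cytosolic, 4 mitochondrial and both scaffold genes. The cytosolic class held 0.931% of all counts and the mitochondrial class 0.0592%.

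**Figure D1:**
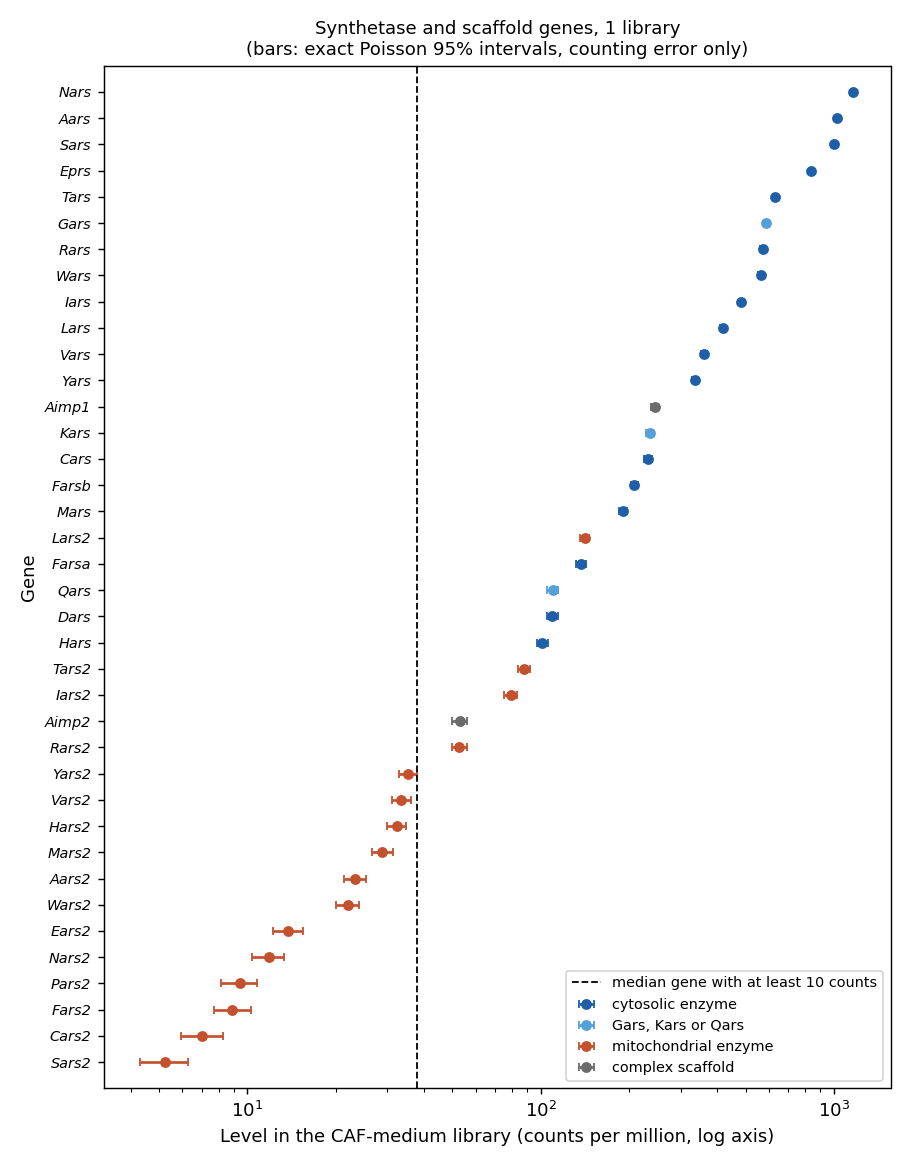
Level of each of the 38 genes in the CAF-medium library, in CPM on a log axis, with exact Poisson 95% intervals of counting error; the dashed line is the median gene at 37.9 CPM. The 20 cytosolic enzyme genes lie at 101 CPM or more, and 12 of the 16 mitochondrial enzyme genes lie below the dashed line.

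Among the cytosolic enzymes, Nars, which loads asparagine, was the highest at 1164 CPM (1149 to 1178), the 39th highest entry of the table. Aars, for alanine, stood at 1028 CPM (1015 to 1042), and Sars, for serine, at 999 CPM (986 to 1013). Eprs, a fused enzyme that loads both glutamate and proline, reached 838 CPM (826 to 851). Exons of Exosc6 and Gm24103 overlapped 15.1% of the exonic bases of Aars, so some of its counts may belong to them. These 4 genes all ranked within the first 93 entries of the table.

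A middle group ran from 335 to 630 CPM. It held Tars for threonine at 630 CPM (619 to 641), Gars for glycine at 589 CPM (579 to 599) and Rars for arginine at 572 CPM (562 to 582). The separate intervals of Gars, with 12529 counts, and Rars, with 12160 counts, overlapped. Such overlap does not show that a difference lies within counting error, and no interval was taken for their ratio. Wars, the tryptophan enzyme and a known interferon-induced gene, stood at 563 CPM (553 to 573). Iars for isoleucine stood at 483 CPM, Lars for leucine at 418 CPM, Vars for valine at 361 CPM and Yars for tyrosine at 335 CPM. Of the 64-base windows of the Iars transcript, 4.76% were also found in the non-overlapping gene Gm4849, the largest such share among the 38 genes.

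The remaining cytosolic genes lay between 101 and 236 CPM. Kars, for lysine, stood at 236 CPM (229 to 242) and Cars, for cysteine, at 232 CPM (226 to 239). Farsb and Farsa encode the 2 subunits of the phenylalanine enzyme and stood at 209 and 137 CPM, so Farsb had 1.52 times the counts of Farsa (1.45 to 1.59). Per kilobase of the longest transcript that ratio was 2.5, and per kilobase of coding sequence 1.31. Mars, for methionine, stood at 191 CPM. Among the lowest were Qars at 110 CPM (105 to 114) and Dars for aspartate at 110 CPM (105 to 114), with intervals that nearly coincided. Hars, for histidine, was the lowest at 101 CPM (97.0 to 106). Its interval met theirs only at the edge, reaching 105.6 CPM against lower ends of 105.4 and 105.3 CPM. That overlap does not show that Hars was level with Qars and Dars.

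Longer transcripts collect more counts, so genes were also compared per kilobase of the longest transcript. On that scale the cytosolic class had a median of 107 CPM per kilobase and the mitochondrial class 5.96, against 11.1 for the median gene. Nars was again the highest at 424 CPM per kilobase, followed by Sars at 279.8, Rars at 271 and Gars at 248. Eprs, with a longest transcript of 5638 bases, stood lower in this order at 149 CPM per kilobase, and Qars was the lowest cytosolic gene at 35.8. The 20 cytosolic genes thus spanned 11.8-fold per kilobase and 11.5-fold in CPM. With class I and class II meaning the 2 unrelated folds of synthetase catalytic domains, the 9 cytosolic class I genes had a median of 105 CPM per kilobase and the 10 class II genes 128, with ranges that overlapped from 41.1 to 271. Eprs holds a domain of each fold and was left out of that comparison.

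The promoters of the cytosolic genes were searched for motifs because ATF4 is known to act through a composite C/EBP-ATF element. Promoter sequences from RefSeq (GRCm38.p6, the same assembly as mm10), reaching from 250 bases before to 50 after the start, were matched to 29 of the 38 genes. Cars, Hars, Lars, Nars, Rars, Vars, Wars, Hars2 and Pars2 had no entry. The motif TGATGNAA, read on both strands, was found in 5 of 13 cytosolic promoters, in 0 of 14 mitochondrial ones and in 0 of 2 scaffold ones. Among genes with at least 10 counts and an entry, 2.74% of 9132 held it, and 3.97% of all promoter windows did. The 5 promoters are shown because they carry this motif, written 5′ to 3′ on the strand of the gene with each match in capitals. They lie at chr8:111033592-111033891 on the plus strand for Aars, chr6:55037751-55038050 on the plus strand for Gars, chr13:49681880-49682179 on the plus strand for Iars, chr15:11399609-11399908 on the minus strand for Tars and chr4:129189653-129189952 on the plus strand for Yars.
Aars: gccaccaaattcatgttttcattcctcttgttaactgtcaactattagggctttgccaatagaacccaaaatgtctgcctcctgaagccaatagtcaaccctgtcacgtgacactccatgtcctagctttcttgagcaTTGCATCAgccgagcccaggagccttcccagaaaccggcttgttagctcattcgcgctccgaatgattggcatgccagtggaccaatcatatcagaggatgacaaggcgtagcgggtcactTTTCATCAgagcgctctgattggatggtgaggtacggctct
Gars: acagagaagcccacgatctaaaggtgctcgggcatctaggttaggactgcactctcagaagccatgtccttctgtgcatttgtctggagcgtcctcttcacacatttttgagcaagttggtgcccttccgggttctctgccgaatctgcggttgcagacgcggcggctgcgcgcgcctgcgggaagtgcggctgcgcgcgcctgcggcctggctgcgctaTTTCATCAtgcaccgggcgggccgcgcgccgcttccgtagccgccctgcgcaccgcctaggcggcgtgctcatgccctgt
Iars: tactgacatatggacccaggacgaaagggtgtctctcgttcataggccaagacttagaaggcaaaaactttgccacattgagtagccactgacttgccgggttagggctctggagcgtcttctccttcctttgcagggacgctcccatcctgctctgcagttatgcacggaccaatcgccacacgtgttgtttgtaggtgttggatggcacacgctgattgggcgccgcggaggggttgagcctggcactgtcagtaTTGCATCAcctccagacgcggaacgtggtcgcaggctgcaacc
Tars: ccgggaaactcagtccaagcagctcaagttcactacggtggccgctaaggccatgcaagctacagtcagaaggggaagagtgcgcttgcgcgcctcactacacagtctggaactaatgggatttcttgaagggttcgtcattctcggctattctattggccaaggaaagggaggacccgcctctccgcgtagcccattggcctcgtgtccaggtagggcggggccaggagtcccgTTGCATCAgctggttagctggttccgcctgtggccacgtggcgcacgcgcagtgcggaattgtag
Yars: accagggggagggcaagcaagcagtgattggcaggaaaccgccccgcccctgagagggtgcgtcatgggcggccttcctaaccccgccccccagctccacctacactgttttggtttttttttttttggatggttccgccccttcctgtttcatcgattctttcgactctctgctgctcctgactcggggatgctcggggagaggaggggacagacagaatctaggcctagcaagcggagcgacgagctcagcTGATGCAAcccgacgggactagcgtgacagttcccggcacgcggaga

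Aars had 2 matches and the other 4 promoters 1 each. The form TTGCATCA, which is TGATGCAA on the other strand, occurred in Aars, Iars and Tars, and Yars held it as TGATGCAA. Gars and the second match in Aars had TTTCATCA. The match in Tars began 15 bases before the start and that in Gars 30 bases before it, while those in Iars and Yars lay within the first 15 bases after the start. The 5 genes with a match stood between 335 and 1028 CPM with a median of 589 CPM, and the 8 without between 110 and 999 CPM with a median of 199.8 CPM. Per kilobase of the longest transcript the ranges were 109 to 248 and 35.8 to 279.8, so the groups overlapped, with Sars and Eprs high and without a match. In 25 of the 29 promoters a stretch after the start was found in a GENCODE transcript of the gene. It was not found for Sars, Dars, Kars and Sars2, 3 of them among the 8 without a match. The windows of these genes may not be at the starts that GENCODE gives. This check asked only whether the stretch lay within a transcript, not whether a transcript started there. In GENCODE the Aars gene begins at 111033144, before its whole window, and the Yars gene at 129189760, before the RefSeq start used. Windows with a match may therefore also lie away from the GENCODE gene starts. A match describes the letters of the sequence and not binding.

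A pair of other motifs was searched in the same way. The E-box CACGTG, a sequence that MYC and related factors can bind, was found in Aars, Farsb, Iars and Tars among 13 cytosolic promoters and in Ears2 among 14 mitochondrial ones, against 11.8% of genes with at least 10 counts. Aars, Iars and Tars thus held both motifs, and the matches overlapped in 0 promoters. The cyclic AMP element TGACGTCA was found in 0 of the 29 promoters, against 3.78% of genes with at least 10 counts. Among 17 genes of the amino acid starvation response with an entry, TGATGNAA was found in Asns, Chac1, Trib3, Atf3, Nupr1 and Vldlr. The share among genes with at least 10 counts and an entry was 2.74%. That list was chosen for a response that ATF4 serves, so its matches are not independent evidence. Of the other lists, only tRNA modification had a match, in Pus7 of 13 genes, and none of 8 mitochondrial translation factors did. Lists this small cannot show a lack of the motif at such a share.

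The mitochondrial enzymes spanned a wider range than the cytosolic ones, 27.1-fold in CPM and 16.3-fold per kilobase of the longest transcript. Lars2, the leucine enzyme, was the highest at 141 CPM (136 to 147), and Tars2 for threonine and Iars2 for isoleucine followed at 87.9 CPM (83.9 to 92.0) and 78.9 CPM (75.2 to 82.8). Rars2, for arginine, was the fourth gene above the median gene at 52.8 CPM (49.8 to 56.0). None of the 64-base windows of Lars2, Tars2, Iars2 and Rars2 occurred in transcripts of non-overlapping genes. The windows cover the longest transcript only, which for Lars2 has 3894 bases against 11089 bases of all its exons. Sharing in its other exons, or with sequence outside annotated transcripts, was not tested. Exons of Rab3gap2 and 2010103J01Rik overlapped 24.2% of the exonic bases of Iars2.

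Just under the median gene lay Yars2 for tyrosine at 35.3 CPM (32.8 to 37.9), Vars2 for valine at 33.5 CPM, Hars2 for histidine at 32.3 CPM and Mars2 for methionine at 28.9 CPM. Aars2 for alanine stood at 23.3 CPM and Wars2 for tryptophan at 22.0 CPM. Ears2, which loads glutamate and so also begins the route to mitochondrial glutaminyl-tRNA, stood at 13.8 CPM (12.2 to 15.4). Nars2 for asparagine stood at 11.8 CPM, Pars2 for proline at 9.4 CPM, Fars2 for phenylalanine at 8.89 CPM and Cars2 for cysteine at 7.01 CPM. Sars2, for serine, was the lowest of all at 5.22 CPM (4.29 to 6.28), so Lars2 had 27.1 times its counts (22.4 to 33.1), or 13.0 times per kilobase of the longest transcript. The 9 mitochondrial class I genes had a median of 7.58 CPM per kilobase of the longest transcript and the 7 class II genes 3.12.

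The classes touched at their edges. In CPM, Lars2 was the only mitochondrial gene above any cytosolic one, and it exceeded Dars, Farsa, Hars and Qars, with an interval that overlapped that of Farsa. Per kilobase of the longest transcript, Lars2 at 36.3 and Qars at 35.8 did not differ beyond counting error and Lars2 was below the other cytosolic genes, and per kilobase of coding sequence it exceeded Qars alone, at 52.2 against 47.2. Per kilobase of all exons, Lars2 at 12.8 lay below Qars at 16.7, and Rars2 at 19.1 exceeded it instead.

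Enzymes for the same amino acid gave 17 pairs, since Eprs faces both Ears2 and Pars2 and Fars2 faces both subunits of the cytosolic enzyme. The cytosolic gene had more counts in 17 of 17 pairs, and also per kilobase of all exons, of the longest transcript and of coding sequence. The size of the gap varied from 2.96 to 191 times in counts with a median of 15.5, and from 2.89 to 136 per kilobase of the longest transcript with a median of 24.3. It exceeded 10 times in 11 pairs on either of these scales, with Rars and Rars2 among them by counts and Mars and Mars2 in their place per kilobase. It did so in 12 pairs per kilobase of all exons and in 9 per kilobase of coding sequence.

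**Figure D2:**
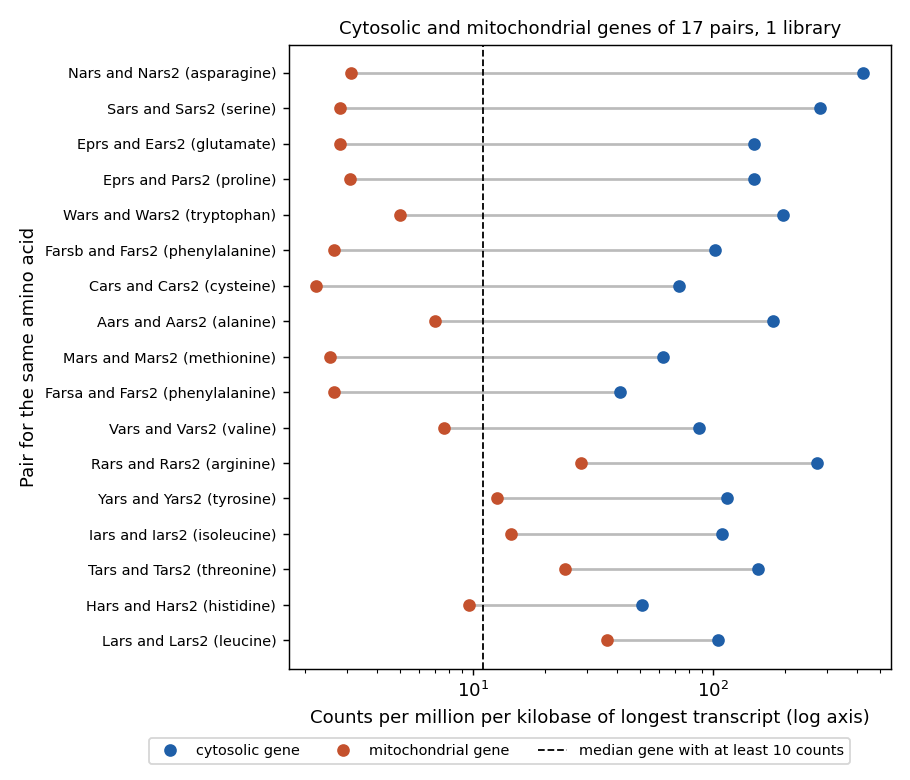
Level of the cytosolic and the mitochondrial gene in each of 17 pairs, in CPM per kilobase of the longest transcript on a log axis, 1 library; the dashed line is the median gene at 11.1. The cytosolic gene is to the right in 17 of 17 pairs, with the widest gap for Nars and Nars2 and the narrowest for Lars and Lars2.

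The widest gaps were for serine and asparagine. Sars had 21248 counts and Sars2 111, a ratio of 191 (159 to 233), or 100.2 per kilobase of the longest transcript. Nars had 24752 counts and Nars2 251, a ratio of 98.6 (87.1 to 112), or 136 per kilobase. In both pairs a cytosolic gene among the highest met a mitochondrial gene among the lowest. Eprs had 89.2 times the counts of Pars2 (77.6 to 103) and 60.9 times those of Ears2 (54.2 to 68.5), and Aars 44.2 times those of Aars2 (40.4 to 48.4).

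The narrowest gaps were for leucine and histidine in counts, per kilobase of the longest transcript and per kilobase of coding sequence. Per kilobase of all exons the narrowest was instead Yars to Yars2 at 5.03 (4.66 to 5.43), followed by Hars to Hars2 at 5.48 (5.03 to 5.98). Lars had 8892 counts and Lars2 3008, a ratio of 2.96 (2.84 to 3.08), or 2.89 per kilobase of the longest transcript and 6.11 per kilobase of all exons. Hars had 2154 counts and Hars2 687, a ratio of 3.14 (2.88 to 3.42), or 5.26 per kilobase of the longest transcript. The first pair was narrow with a high mitochondrial gene, and the second with the lowest cytosolic gene by counts. Iars and Iars2, Mars and Mars2, and Tars and Tars2 differed by 6.11, 6.6 and 7.17 times in counts.

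**Figure D3:**
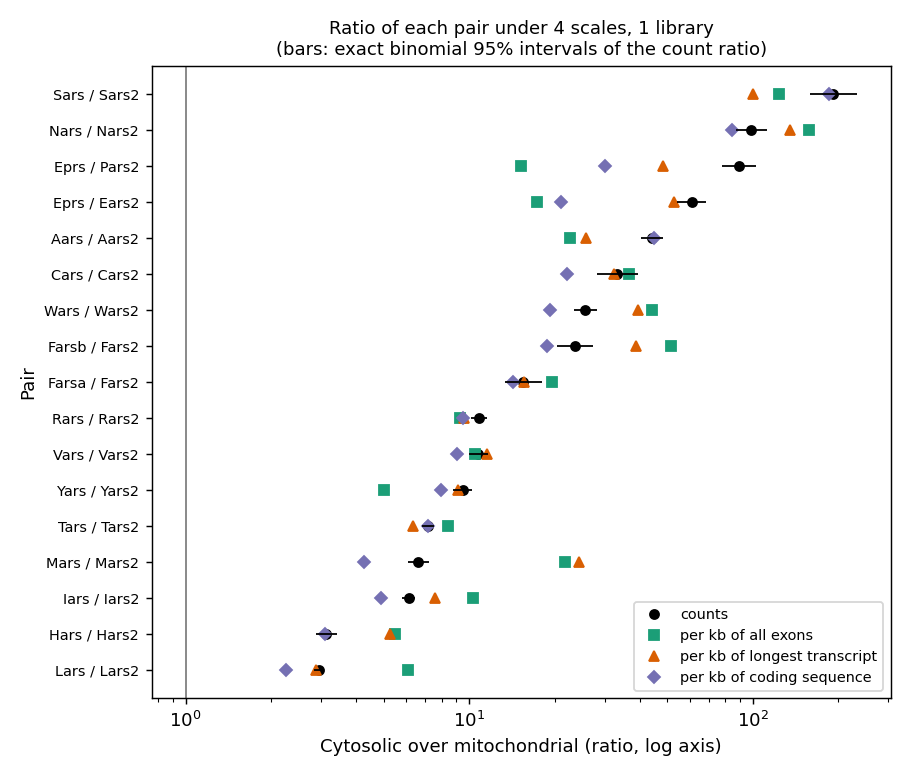
Ratio of the cytosolic to the mitochondrial gene in each of 17 pairs, as counts and per kilobase of 3 lengths, on a log axis, with exact binomial 95% intervals for the count ratio. Every ratio lies to the right of 1, and the ratio of Mars to Mars2 moves with the length used, from 4.25 to 24.3.

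The length used moved the ratios of methionine and of Eprs widely. The annotated transcript of Mars2 has 11294 bases, of which 1761 are coding, and the ratio of Mars to Mars2 was 24.3 per kilobase of the longest transcript but 4.25 per kilobase of coding sequence. The exons of Eprs add up to 18102 bases over all its transcripts, and its ratio to Pars2 fell to 15.2 per kilobase of all exons. The order of the pairs is therefore less certain than the direction within each.

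Levels of the partners showed little relation across pairs. Between cytosolic and mitochondrial levels per kilobase of the longest transcript, on a log10 scale, Pearson's r was 0.107 and Spearman's rho 0.277 over 17 pairs from 1 library, in which Eprs and Fars2 each occur more than once. In CPM the values were -0.0320 and -0.0564. The proteins themselves differ widely. In global alignments of the encoded proteins, identity over aligned residues had a median of 29.9% in 15 pairs and was over 50% in 3, namely Hars and Hars2 at 70.5%, Tars and Tars2 at 55.2% and Vars and Vars2 at 50.6%. Farsb with Fars2 and Yars with Yars2 aligned over less than 50% of the shorter protein and were left out. For Tars, Tars2, Vars and Vars2, no window of 64 bases was found in a transcript of a non-overlapping gene. Hars and Hars2 overlap in the genome, so windows shared between the 2 were not searched.

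Some of these genes start close to another gene. Hars (chromosome 18, 36766528 to 36783205, minus strand, mm10) and Hars2 (36783008 to 36792562, plus strand) lie head to head and overlap, with annotated starts 197 bases apart, and 7.97% of the exonic bases of Hars and 4.56% of those of Hars2 lay in exons of the other. The strand setting of the counting is not known, so reads from that stretch could be assigned to either. In all, 9 of 38 genes had a protein-coding neighbour starting head to head within 1000 bases, against 12.7% of protein-coding genes with at least 10 counts. Of the 9, 5 were mitochondrial, 3 cytosolic and 1 a scaffold gene. Sars2 (chromosome 7, 28741992 to 28753871, plus strand) starts 172 bases from Mrps12, a mitochondrial ribosomal protein gene, and stood at 5.22 CPM beside 27.8 CPM for its neighbour. Rars2 starts 13 bases from the replication gene Orc3, and the 2 stood at 52.8 and 61.0 CPM. Kars starts 75 bases from Terf2ip and Yars 33 bases from S100pbp, which stood at 28.5 and 58.9 CPM. Nars lies on chromosome 18 (64499647 to 64516652, minus strand) and Lars2 on chromosome 9 (123366927 to 123462666, plus strand).

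In mammalian cells 8 of the cytosolic enzymes sit in a large multisynthetase complex, held together by Aimp1, Aimp2 and Eef1e1. The enzymes are Dars, Eprs, Iars, Kars, Lars, Mars, Qars and Rars. Their median was lower than that of the other 12 cytosolic genes, at 54.3 against 93.2 CPM per kilobase of all exons, and at 101 against 135 per kilobase of the longest transcript. Within the complex, levels per kilobase of the longest transcript ran from 35.8 for Qars to 271 for Rars, a 7.57-fold span among genes whose products share an assembly. The ranges of the 2 groups overlapped on every length scale.

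The place of the scaffolds among the enzymes they join depended on the length used. Aimp1 stood at 245 CPM (238 to 252), Aimp2 at 53.0 CPM (49.98 to 56.2) and Eef1e1 at 72.6 CPM. In CPM, Aimp1 was above 4 of the 8 enzymes and the other two scaffolds were above none. Aimp1 had 4.62 times the counts of Aimp2 (4.33 to 4.93), but 1.38 times per kilobase of the longest transcript, since the coding parts of both are short and the transcript of Aimp1 is long. Per kilobase of the longest transcript the scaffolds stood at 61.8, 44.8 and 28.4 CPM. Aimp1 thus lay below 6 of the 8 enzymes, Aimp2 below 7 and Eef1e1 below 8. The nearest of the enzymes above Aimp1 was Mars at 62.2, so close that these counts do not settle their order. Per kilobase of coding sequence Aimp1, at 255, was instead above all enzymes but Rars, and Eef1e1, at 138, above all but Eprs and Rars, while Aimp2, at 55.1, was above Qars alone. Exons of Eif2ak1 overlapped 29.4% of the exonic bases of Aimp2.

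**Figure D4:**
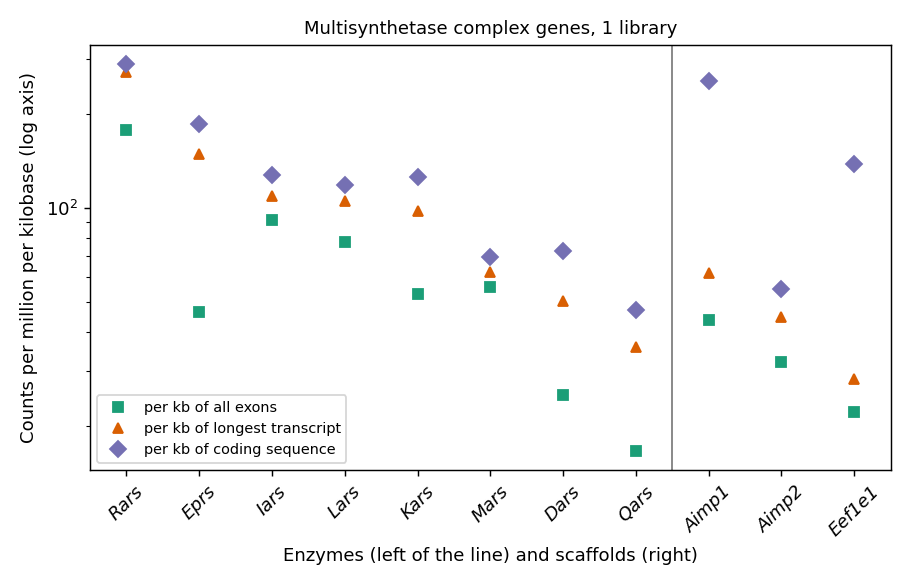
Levels of the 8 enzymes and 3 scaffolds of the multisynthetase complex in the CAF-medium library, in CPM per kilobase of 3 lengths on a log axis. Rars is the highest enzyme and Qars the lowest on each length, while the place of Aimp1 and Eef1e1 depends on whether coding length is used.

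The level of a cytosolic enzyme was set beside how often its amino acid occurs in the proteins the cells' messages encode. Each protein was weighted by its gene's CPM per kilobase of the longest transcript. Leucine was the most used amino acid at 9.38% and tryptophan the least at 1.03%. Spearman's rho between use and level over 20 amino acids was 0.32 and Pearson's r 0.179, all from 1 library. Tryptophan ranked 20th in use while Wars ranked 5th in level, and asparagine ranked 14th in use at 3.56% while Nars ranked first. Glutamine, at 4.66% of residues, was 12th in use while Qars was the lowest of the 20.

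**Figure D5:**
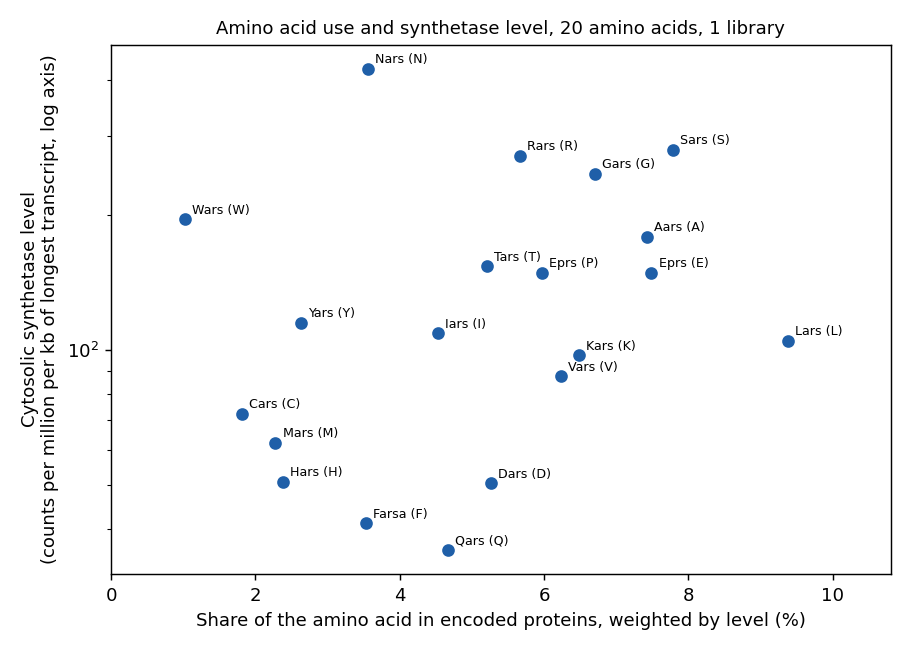
Share of each amino acid in encoded proteins, weighted by level, in percent, against the level of its cytosolic synthetase in CPM per kilobase of the longest transcript on a log axis, with Eprs shown for both of its amino acids and Farsa for phenylalanine. Nars and Wars lie high for the use of their amino acids, and Qars and Farsa lie low. Farsb, the other subunit of the phenylalanine enzyme, is not shown and stood at 103 on this scale against 41.1 for Farsa.

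Other genes that act in or beside tRNA loading, with the scaffold gene Eef1e1 among them, were at low to moderate levels. Their median was 23.2 CPM over 9 genes, of which 2, Eef1e1 and Sepsecs, exceeded the median gene and none had under 10 counts. Apart from Eef1e1, the highest were Sepsecs, which completes selenocysteinyl-tRNA, at 45.4 CPM, Gatc at 25.3 CPM and Pstk, the kinase that precedes Sepsecs, at 23.6 CPM, with 58.8% of the exonic bases of Pstk in exons of other genes. Gatb, Gatc and Qrsl1, which amidate glutamate on mitochondrial tRNA, stood at 15.3, 25.3 and 11.8 CPM beside Ears2 at 13.8 CPM. Of 4 genes that remove wrongly loaded amino acids, Dtd2 was the highest at 40.7 CPM and Dtd1 and Prorsd1 stood at 12.6 and 10.4 CPM, while Aarsd1 had 1 count, with 41.0% of its exonic bases in exons of other genes.

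Genes that make and modify tRNA lay near the median gene. Of 22 genes of tRNA processing and export, 10 exceeded the median gene, and the 21 with 10 counts or more had a median of 35.5 CPM. Xpot, the exporter of tRNA from the nucleus, led at 358 CPM, followed by Ssb, which binds new tRNA ends, at 288 CPM, the tRNA ligase Rtcb at 139.6 CPM and Pop1 of RNase P at 124 CPM, and Rpp25 had 7 counts. The 16 of 17 modification genes with 10 counts or more had a median of 48.3 CPM, led by Nsun2 at 187 CPM, Trmt1 at 140.4 CPM, Pus7 at 91.6 CPM and Trmt6 at 78.5 CPM. Adat3 was listed at 0, and all of its exonic bases lie in exons of other genes.

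On the mitochondrial side, genes of tRNA processing and modification and of translation factors were in the range of the mitochondrial synthetases except for Mtrf1. Mtrf1, a release factor family gene, stood at 4.84 CPM (3.95 to 5.87), an interval that overlapped that of Sars2, the lowest synthetase. The 8 genes of tRNA processing and modification had a median of 29.8 CPM. They were led by Hsd17b10 and Trmt10c, both subunits of mitochondrial RNase P, at 113 and 83.7 CPM, with Trit1 and Gtpbp3 at 35.1 and 34.1 CPM. The 10 translation factors had a median of 21.5 CPM, led by the elongation factor Gfm1 at 84.0 CPM, the initiation factor Mtif2 at 50.8 CPM, Gfm2 at 38.8 CPM and Mtif3 at 22.8 CPM. Tufm stood at 21.2 CPM, but 65.1% of its windows were also found in Gm9755.

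Genes of the amino acid starvation response outside the synthetases were at levels like those of the cytosolic enzymes. All 18 exceeded the median gene and 15 exceeded 100 CPM, against 50% and 23.7% of genes with at least 10 counts. Their median was 304 CPM. Phgdh of serine synthesis stood at 1536 CPM with 55.7% of windows shared, Atf4 at 1149 CPM, Asns, which makes asparagine, at 796 CPM and Psat1, also of serine synthesis, at 781 CPM. Asns makes the amino acid that Nars loads, and Phgdh belongs to the synthesis of serine, which Sars loads. All 4 exceeded 100 CPM, but so did all 20 cytosolic synthetase genes, so that limit does not set these pairs apart. A level in 1 library does not show whether the response was active.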

How the data were processed

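The deposited values are whole-number counts per gene symbol, made by the authors and not scaled. HISAT2 2.1.0, StringTie and build mm10 are named in the submitters' processing notes, with no role given; how reads were counted, with which strand setting and annotation, is not given in the sources used here. Of 2 value columns, 1 was matched by its name to the title of the CAF-medium library. The other 1, whose name matched neither library, was not used, so the planned comparison of media was not made.

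Counts were divided by the total of 21269197 to give CPM, and by gene lengths from GENCODE M21 (mm10), in which 99.6% of entries matched. Lengths were of all exons, of the longest transcript and of the longest complete coding sequence. Shared windows are 64-base stretches, every 16 bases, of the longest transcript found exactly, on either strand, in transcripts of non-overlapping genes. Intervals are 95% and cover counting error only. Proteins were aligned globally with BLOSUM62, gap costs 11 and 1, and free end gaps. The interval code was tested on simulated data.

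The 38 members and the gene lists were chosen with earlier results of these data known. All members are named, with up to 4 of the highest genes of each list and those under 10 counts; a few others, and the 100 CPM limit, were chosen after values were seen. Some genes of these lists are not reported here. Biopython 1.88, matplotlib 3.10.9, numpy 2.4.6, pandas 2.3.3, scipy 1.17.1 and Python 3.11.15 were used.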

Additional observations from a re-analysis of the deposited data

How the results depend on the processing

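The cytosolic median was 14.9 times the mitochondrial median in CPM. It was 16.6 times per kilobase of all exons, 17.9 times per kilobase of the longest transcript and 9.4 times per kilobase of coding sequence. Without Gars, Kars and Qars it was 16.04 times, and without the highest member of each class 15.5 times. No member had 10% of its windows shared and all had at least 10 counts, so those settings left the value as it was. The cytosolic gene was higher in 17 of 17 pairs on each length scale. Of the 38 genes, 26 exceeded the median gene, 30 with a minimum of 1 count, 26 with a minimum of 100 counts and 27 per kilobase of all exons. The median of the complex enzymes was 0.582 times that of the other cytosolic enzymes per kilobase of all exons, 0.753 times per kilobase of the longest transcript and 0.523 times per kilobase of coding sequence. Spearman's rho between amino acid use and level was 0.32 with and without ribosomal protein genes. Where the length scale moved a value, the lengths themselves, such as 18102 bases of exons against 5638 in the longest transcript of Eprs, are the only thing that changed. The alternatives planned for the comparison of media were not run. No paired analysis was possible because 1 library was used. Depth limits the lowest genes most: Sars2, at 111 counts, had an interval from 4.29 to 6.28 CPM.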
